A study of Mus musculus with 4 samples.

Results

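Prostaglandin synthesis, transport and signalling were evaluated with 10 genes in the tips of the developing mouse prostate: Ptgs1, Ptgs2 and Ptges for synthesis, Slco2a1 and Abcc4 for transport, Hpgd for inactivation, and the E-prostaglandin receptors Ptger1, Ptger2, Ptger3 and Ptger4. Slco2a1 was picked for its strong level in the basal libraries, and the other 9 are the listed genes of its pathway. All 10 were found among the 49671 genes of the deposited table. Because the choice was made with the basal and luminal values in view, the difference of these genes between the cell types is given as a description, with no test.

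RNA-seq was performed on 2 basal libraries (replicates 1 and 3) and 2 luminal libraries (replicates 3 and 2) from untreated CD-1 mice at postnatal days 10 to 13 by the sample labels, a range that the study's methods end a day earlier. Tips were cut from the ventral lobe, lobes of several mice were used, and living cells without CD45, CD31 or CD140a were sorted by FACS as basal (EpCAM high, CD49f high) or luminal (EpCAM high, CD49f low). The study takes the basal cells at the tips as multipotent and the luminal cells as derived from them. It is not stated whether replicates came from separate animals, so differences between libraries of a cell type may be technical.

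Prostaglandins are lipid signals made from arachidonic acid, which phospholipases release from membranes. The cyclooxygenases encoded by Ptgs1 and Ptgs2 oxidize it to an unstable intermediate that Ptges, the inducible microsomal synthase, turns into E-prostaglandin. The product leaves the cell through exporters such as Abcc4 and acts on G protein-coupled receptors of the same or a neighbouring cell. Slco2a1 carries prostaglandins back into the cell, where Hpgd oxidizes them to inactive products. The prostate and its secretions are a classical source of prostaglandins.

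Values are normalized read counts, which the authors scaled to a common total per library and rounded. Of the low values within a library, 97.9 to 99.1% were multiples of the value of 1 read. A low value off this spacing was found in 528 genes, of which 0 were members and 0 pathway genes. The depth recovered from this spacing was 3080218 and 3194287 reads for basal libraries and 643267 and 1036680 for luminal libraries. In luminal replicate 2, the shallowest, a stricter check that values are whole reads was not met, so its reads, and the ratios, intervals and edgeR and DESeq2 results that use them, are approximate. The luminal libraries were shallower, so that 1 read was worth 19.4 or 31.2 there against 6.26 or 6.49 in basal cells, and depth and cell type cannot be told apart. Nuclear protein-coding genes held 76.0 and 74.7% of the value in basal replicates 1 and 3 and 57.3 and 64.2% in luminal replicates 3 and 2, a gap that likewise follows the cell type. The sort was visible in the RNA. Of 8 basal markers, 7 were detected in each library, and their summed value was 96627 and 79047 in basal replicates 1 and 3 against 9216 and 7010 in luminal replicates 3 and 2. Dsg3 was at 0 in all 4. The 9 luminal markers summed to 26591 and 27782 in basal cells and to 64496 and 44034 in luminal cells. Genes of other cells were present too. The 12 fibroblast markers, all detected in each library, summed to 111394 and 228649 in basal replicates 1 and 3 and to 86773 and 225324 in luminal replicates 3 and 2. Smooth muscle markers had their lowest sum, 11068, in luminal replicate 3, where the other libraries had 33881 to 63695. The 5 neuroendocrine markers were all detected in luminal replicate 3, with a sum of 658, and summed to 0 to 32 elsewhere. Listed as basal 1, basal 3, luminal 3 and luminal 2, immune markers summed to 3895, 1935, 910 and 2118. In that order endothelial markers summed to 2118, 2168, 910 and 2306, and nerve and glial markers to 581, 1032, 271 and 124. Of the genes behind the sort, Ptprc (CD45) was at 150, 6, 0 and 0. Pecam1 (CD31) was at 833, 637, 174 and 499, and Pdgfra (CD140a) at 3307, 4144, 2575 and 8383. The part of such RNA in the levels below was not tested.

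The promoters of the genes on which the account turns are shown first: Slco2a1, the transporter high in basal cells, Slco4a1, a transporter of the same family called toward basal cells, Abcc4, the exporter high in luminal cells, and Ptgs2, the member with the highest level per length. The sequences are RefSeq's for GRCm38.p6, read 5′ to 3′ on the gene's strand, from 250 bases before the annotated start to 30 bases after it. Capitals mark matches, on either strand, to a TATA box (TATAAA), a GC box (GGGCGG), an AP-1 site (TGANTCA), a cAMP response element core (TGACGT) or an E-box (CACGTG). Among 32851 windows of this length in the RefSeq table, 13.1% held the TATA box letters, 34.7% the GC box, 7.46% the AP-1 letters, 7.26% the cAMP element and 6.79% the E-box. Of the 10 members, 9 had an entry in this table, which has none for Ptger1.
Slco2a1, chr9:103008237-103008516, plus strand: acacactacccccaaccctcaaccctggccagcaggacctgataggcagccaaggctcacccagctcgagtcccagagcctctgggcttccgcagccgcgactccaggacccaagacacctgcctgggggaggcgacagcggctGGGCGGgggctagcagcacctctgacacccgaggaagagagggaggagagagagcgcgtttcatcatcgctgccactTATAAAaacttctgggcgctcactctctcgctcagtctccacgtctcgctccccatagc
Slco4a1, chr2:180455995-180456274, plus strand: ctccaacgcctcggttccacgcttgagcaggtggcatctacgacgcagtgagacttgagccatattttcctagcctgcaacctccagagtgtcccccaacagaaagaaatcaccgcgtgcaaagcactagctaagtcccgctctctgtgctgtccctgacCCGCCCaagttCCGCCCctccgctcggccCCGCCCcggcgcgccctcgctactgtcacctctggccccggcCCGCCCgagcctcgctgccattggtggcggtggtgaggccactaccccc
Abcc4, chr14:118706190-118706469, minus strand: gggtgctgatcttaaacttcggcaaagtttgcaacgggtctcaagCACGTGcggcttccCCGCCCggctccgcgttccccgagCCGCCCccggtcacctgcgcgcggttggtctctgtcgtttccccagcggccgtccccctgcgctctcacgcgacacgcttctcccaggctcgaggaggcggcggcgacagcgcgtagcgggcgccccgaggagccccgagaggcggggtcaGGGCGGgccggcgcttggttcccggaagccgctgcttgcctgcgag
Ptgs2, chr1:150099781-150100060, plus strand: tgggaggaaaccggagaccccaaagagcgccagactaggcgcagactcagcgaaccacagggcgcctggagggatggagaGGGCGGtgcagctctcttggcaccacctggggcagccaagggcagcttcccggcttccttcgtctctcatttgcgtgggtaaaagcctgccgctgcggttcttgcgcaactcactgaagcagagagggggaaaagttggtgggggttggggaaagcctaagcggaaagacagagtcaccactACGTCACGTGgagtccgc
The start that RefSeq gives Slco2a1, base 103008487, lies within the gene as GENCODE draws it, which begins further upstream. For the other 3 genes the start used here is the base at which GENCODE begins the gene. RefSeq also lists a further start for Abcc4, at base 118676931, and for Slco4a1, at base 180460978. Their windows are not shown and held 0 matches. Which start these cells use was not tested. The TATA letters of Slco2a1 begin 29 bases before its start, and the window also holds 1 GC box. Slco4a1 holds 4 GC boxes and no TATA letters. Abcc4 holds 3 GC boxes and an E-box. In Ptgs2 the cAMP element and the E-box overlap and begin 13 and 17 bases into the transcript as RefSeq draws it, a GC box lies further upstream, and no AP-1 letters were found. A match is a run of letters and not a measured binding site.

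Both transporters differed in level between the cell types, in opposite directions. Slco2a1 (ENSMUSG00000032548, chromosome 9 of GRCm38, 102988712 to 103096002), the uptake carrier, was at 5304 in basal replicate 1 and 4443 in basal replicate 3. It was at 97 in luminal replicate 3 and 156 in luminal replicate 2, which is 5 reads in each. Both basal libraries were far above both luminal libraries. Basal cells averaged 4874 ± 609 and luminal cells 126 ± 41.7 (SD over 2 libraries), which makes the level 38.5-fold higher in basal cells. The ratio of recovered reads per unit of depth, basal over luminal, was 40.9, with a 95% exact interval of 22.2 to 85.4 that covers counting error only, as all such intervals here do. In the basal average 620 of the 18737 genes kept by the filter on low values were higher, and in the ratio of luminal to basal averages 467 of them were lower, 37 of these among the 12544 with an average of 100 or more. The log2 ratio of averages, luminal over basal, was -5.27, and it ran from -5.65 to -4.97 when each library was left out in turn. These are bulk libraries, so that fewer cells with the transcript and less transcript per cell cannot be told apart.

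Abcc4 (ENSMUSG00000032849, chromosome 14, 118482692 to 118706219), an ATP-driven exporter of prostaglandins and cyclic nucleotides, showed the opposite order. It was at 225 and 305 in basal replicates 1 and 3 and at 949 and 1028 in luminal replicates 3 and 2. Both luminal libraries were above both basal libraries, with averages of 265 ± 56.6 and 988 ± 55.9 (SD, n = 2 each). The level was 3.73-fold higher in luminal cells, and the ratio of recovered reads, luminal over basal, was 3.70 (95% exact interval 2.69 to 5.08). Rescaling each library to its nuclear protein-coding genes gave a log2 ratio of 2.21 in place of 1.90.

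**Figure D1:**
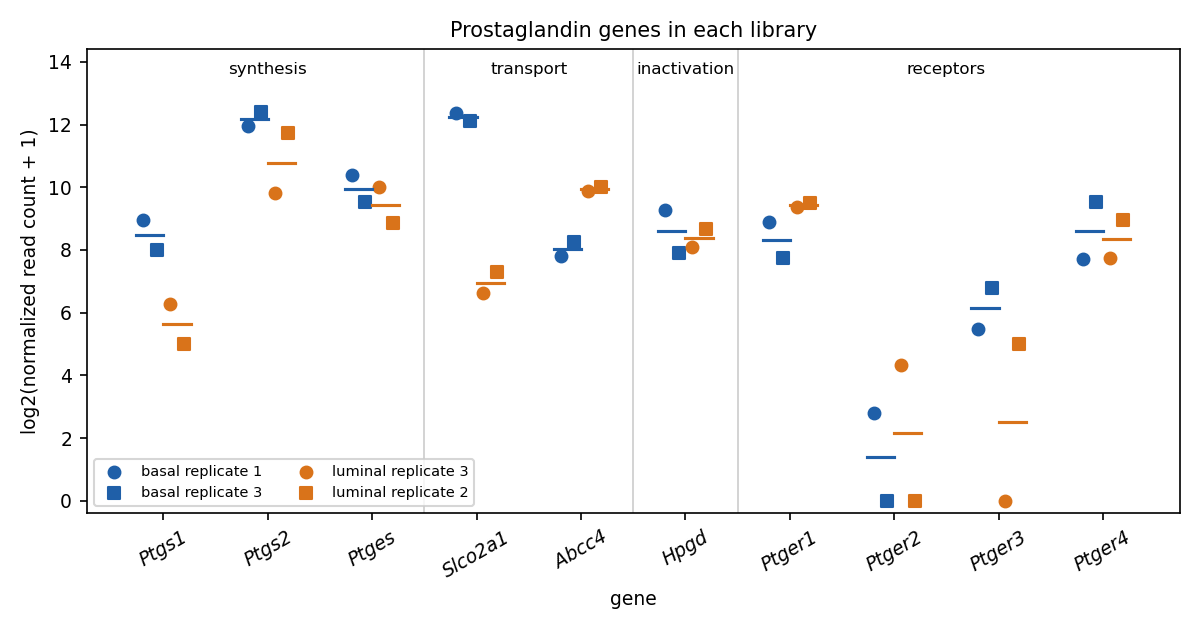
Level of each prostaglandin gene in each library, as log2 of the normalized read count plus 1, grouped by role, with basal libraries in blue, luminal libraries in orange and a line at the mean of each pair. Slco2a1 lies at 5304 and 4443 in the basal libraries against 97 and 156 in the luminal libraries, Abcc4 has the opposite order, and the points of Ptges, Hpgd and Ptger4 overlap.

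The synthesis genes did not share a pattern. Ptgs1 (ENSMUSG00000047250, chromosome 2, 36230426 to 36252272), the cyclooxygenase that many tissues express without stimulation, was at 495 and 253 in basal replicates 1 and 3. It was at 77 in luminal replicate 3 and 31 in luminal replicate 2, or 4 reads and 1 read. Both basal libraries were higher, and the averages were 374 ± 171 in basal and 54.0 ± 32.5 in luminal cells (SD, n = 2 each). The ratio of recovered reads, basal over luminal, was 6.30, with a wide interval of 2.62 to 19.8 (95%, exact) because the luminal libraries held 5 reads in all. The log2 ratio was -2.79, and -3.59 without luminal replicate 3. Basal replicate 1, highest in Ptgs1, also had the highest immune sum, while luminal replicate 2, lowest in Ptgs1, did not have the lowest. The part of immune RNA in the Ptgs1 level was not tested.

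Ptgs2 (ENSMUSG00000032487, chromosome 1, 150100031 to 150108227), the inducible cyclooxygenase and an immediate early gene, was high in all 4 libraries. It was at 3945 and 5443 in basal replicates 1 and 3, at 910 in luminal replicate 3 and at 3397 in luminal replicate 2. The basal libraries were both higher, but luminal replicate 2 lay closer to them than to luminal replicate 3. The averages were 4694 ± 1059 and 2154 ± 1759 (SD, n = 2 each), 2.18-fold higher in basal cells. The size rested on the luminal library used, with a log2 ratio of -1.12 from all 4 libraries, -0.47 without luminal replicate 3 and -2.37 without luminal replicate 2. The 21 stress and immediate early genes, which rise when tissue is digested, were detected in every library and summed to 540729 and 330520 in basal replicates 1 and 3 and to 205959 and 304270 in luminal replicates 3 and 2. Luminal replicate 3 was lowest in this sum as in Ptgs2, while basal replicate 1 was highest in the sum and basal replicate 3 in Ptgs2. In each cell type Ptgs2 was also higher in the library with the higher fibroblast and smooth muscle sums, basal replicate 3 and luminal replicate 2. The parts of dissociation stress and of stromal RNA in the Ptgs2 level were not tested.

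Ptges (ENSMUSG00000050737, chromosome 2, 30889471 to 30929863) was at 1328 and 734 in basal replicates 1 and 3 and at 1026 and 467 in luminal replicates 3 and 2. The cell types overlapped, and the averages of 1031 ± 420 and 746 ± 395 (SD, n = 2 each) differed by less than the spread between libraries. The log2 ratio of -0.47 ran from -1.14 to 0.02 as each library was left out. Hpgd (ENSMUSG00000031613, chromosome 8, 56294585 to 56321043), the dehydrogenase that starts prostaglandin breakdown, was at 620 and 240 in basal replicates 1 and 3 and at 271 and 405 in luminal replicates 3 and 2. Both luminal values lay between the basal values. Its log2 ratio was -0.35, and 0.49 without basal replicate 1, so no direction can be given. The interval for the ratio of recovered reads, luminal over basal, was 0.594 to 1.02 for Ptges and 0.473 to 1.13 for Hpgd.

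The E-prostaglandin receptors were low to moderate, and the libraries of the cell types lay apart for Ptger1 and Ptger3 but not for Ptger2 and Ptger4. Ptger4 (ENSMUSG00000039942, chromosome 15, 5206661 to 5244187), which raises cAMP, was at 207 and 741 in basal replicates 1 and 3 and at 213 and 499 in luminal replicates 3 and 2. The cell types overlapped. In each cell type the higher value was in the library with the higher fibroblast sum, basal replicate 3 and luminal replicate 2. Whether stromal RNA contributes was not tested. The log2 ratio was -0.41 from all libraries, 0.78 without basal replicate 3 and -1.15 without luminal replicate 2. Of its exon bases 15.3% are shared with Gm15937, which was at 13 in basal replicate 3 and at 0 in the other libraries.

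Ptger1 (ENSMUSG00000019464, chromosome 8, 83666678 to 83672753), which acts through calcium, was at 476 and 214 in basal replicates 1 and 3 and at 658 and 717 in luminal replicates 3 and 2. Both luminal libraries were higher, with averages of 345 ± 185 and 688 ± 41.7 (SD, n = 2 each). The log2 ratio was 0.99. It became 1.68 when basal replicate 1 was left out and 0.53 when basal replicate 3 was. The value is uncertain, because not all of its annotated exon bases are its own and strand use in counting is not stated.

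Ptger3 (ENSMUSG00000040016, chromosome 3, 157566892 to 157645888), which lowers cAMP, was low. It was at 44 and 110 in basal replicates 1 and 3, or 7 and 17 reads, at 0 in luminal replicate 3 and at 31, a single read, in luminal replicate 2. The ratio of recovered reads, basal over luminal, was 6.41, and its 95% exact interval of 1.04 to 263 leaves the size unknown at this depth. Ptger2 (ENSMUSG00000037759, chromosome 14, 44988195 to 45003820), the other receptor that raises cAMP, had 1 read in basal replicate 1, 1 read in luminal replicate 3 and none in the other libraries. Gm17173, an antisense gene that covers 4.74% of its exon bases, had the same value in each library, and the reads of both cannot be told apart there. It was the single member of the 10 that did not pass the filter on low values, and no difference was detectable at this depth.

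**Figure D2:**
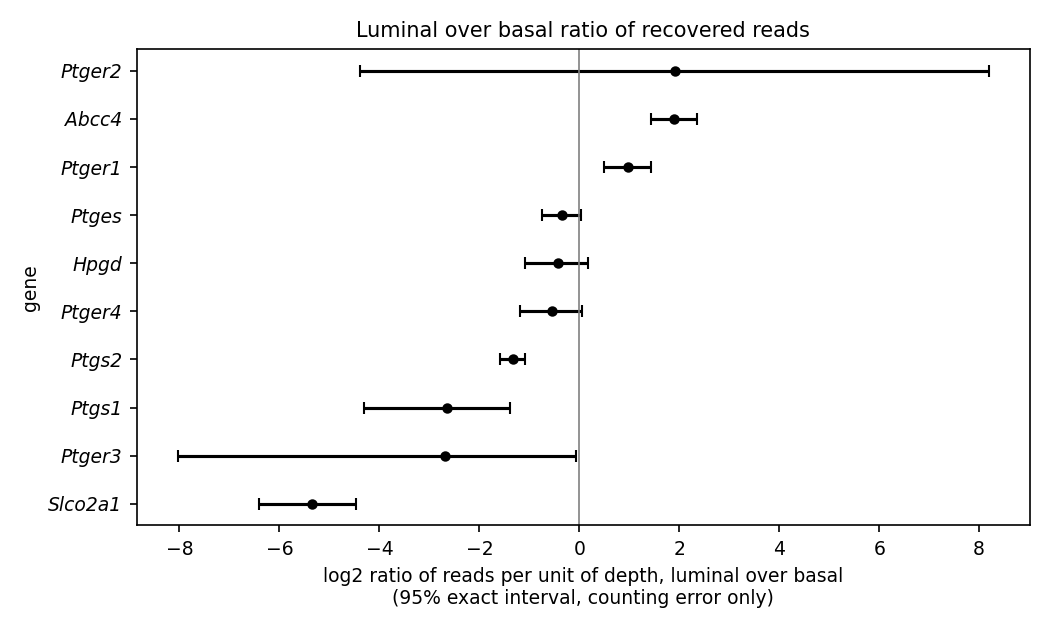
Ratio of recovered reads per unit of depth, luminal over basal, on a log2 axis for each of the 10 genes, with points for the ratio over the pooled reads of each cell type and bars for the 95% exact interval, which covers counting error and not the spread between libraries. Slco2a1 lies lowest, Abcc4 lies to the luminal side, and Ptger2 and Ptger3 have the widest bars, since they rest on 1 luminal read each.

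Among the 9 members that passed the filter, both basal libraries were above both luminal libraries in 4 (Slco2a1, Ptgs1, Ptgs2 and Ptger3), an order found in 27.3% of the 18737 genes kept. Both luminal libraries were above both basal libraries in 2 (Abcc4 and Ptger1), an order found in 23.6%. By the study's fold call, a ratio of averages of at least 2 or at most 0.5, the same 4 were higher in basal cells and Abcc4 in luminal cells, where the calls cover 16.3% and 18.3% of genes. After rescaling to nuclear protein-coding genes Ptgs2 no longer passed (log2 ratio -0.86) and Ptger1 did (1.31, and 1.05 with median-ratio scaling). Ptger3 passed the filter through its basal libraries alone. These counts follow from how the members were picked and carry no test.

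Levels of different genes were compared per kilobase of annotated exon. In basal cells Ptgs2 was highest, at 861 to 1188 per kilobase, and lay above Slco2a1 at 328 to 392 in both libraries. The ranges of Slco2a1, Ptges and Hpgd overlapped, with means of 360, 262 and 255 per kilobase. Ptgs1, Ptger4, Ptger1 and Abcc4 followed at means of 96.3, 71.3, 63.2 and 41.5 per kilobase, each overlapping the next, and Ptger3 and Ptger2 were last, at 13.5 and 0.578. In luminal cells Ptgs2 was again first by its mean, 470 per kilobase, but its range of 199 to 742 overlapped Hpgd. Hpgd, Ptges and Abcc4 (means of 201, 190 and 155 per kilobase) each overlapped the one named before, and Abcc4 lay apart from Ptger1 below it. Ptger1 and Ptger4 followed, at 126 and 53.5 per kilobase, each apart from the next. Slco2a1 had dropped to 9.34 per kilobase, the third from last, beside Ptgs1 at 13.9. The order depends on the length used. Over its principal transcript, which is shorter than all its annotated exons together, Slco2a1 was at 624 to 745 per kilobase in basal cells, above Ptges at 201 to 364.

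The 5 genes whose pattern was most like Slco2a1 were Lama3, Arhgap24, Cp, Col17a1 and Etv4. Likeness was the Euclidean distance between log2 values over the 4 libraries after subtracting each gene's mean, among 12550 other genes with an average of 100 or more, whether or not they passed the filter. Lama3, a chain of the laminin of epithelial basement membranes, was closest, at a distance of 0.12 and averages of 8875 in basal and 227 in luminal cells. Col17a1, the collagen of hemidesmosomes, was at a distance of 0.57, with averages of 12311 and 276. Cp, the copper-carrying ferroxidase, was at 0.35 with averages of 14846 and 366, Arhgap24 at 0.31 with 2112 and 50.5, and Etv4, an ETS-family transcription factor, at 0.61, with values of 651 and 838 in basal against 19 and 31 in luminal libraries. Of the other members compared, Ptgs1 was closest and ranked 205 at a distance of 2.87. With 4 libraries this describes the values and carries no test.

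The rest of the pathway was evaluated in 6 lists with 83 genes, of which 58 passed the filter, with limma on log2 of the normalized read count plus 1 and Benjamini-Hochberg adjustment over all genes kept. Of these, 1 was called toward basal cells and 0 toward luminal cells, where limma called 0.438% and 0.256% of all genes kept (0.694% in all), and 17 had an unadjusted p under 0.05, as did 18.5% of all genes kept. Of the 58 genes, 8 passed the filter through the libraries of 1 cell type alone, and 4 of these are among the 17. Other tools run on recovered reads each called 4 toward luminal and 2 toward basal cells, against a background of 5.13% of all genes for edgeR's quasi-likelihood test (2.38% luminal, 2.75% basal) and 4.48% for DESeq2 (2.19% luminal, 2.29% basal). The 6 genes were Pla2g4f, Ptgdr, Alox12 and Pde4d toward luminal cells and Slco4a1 and Pde4b toward basal cells. Pla2g4f and Ptgdr had entered through the luminal libraries alone, so their part in the count is no support for a difference. The median fitted log2 difference, luminal minus basal, was -0.01 over the 58 genes and -0.10 over all genes kept. The list medians lay on both sides. They were 0.95 for substrate release, 0.25 for terminal synthases and -1.02 for transport and inactivation. They were 1.38 for other prostanoid receptors, 0.48 for the lipoxygenase list and -0.28 for cAMP genes. By the fold call 14 of the 58 genes were higher in luminal and 10 in basal cells (18.3% and 16.3% of all genes kept).

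Slco4a1 (ENSMUSG00000038963, chromosome 2, 180456245 to 180474867), an organic anion carrier of the Slco2a1 family, was the gene limma called. It was at 1240 and 3001 in basal replicates 1 and 3 and at 39 and 31 in luminal replicates 3 and 2, which is 2 reads and 1 read. Basal cells were higher in both libraries, with a fitted log2 difference, luminal minus basal, of -5.75 (standard error 0.59, limma adjusted p = 0.0410). The ratio of recovered reads, basal over luminal, was 58.7, and on the log2 scale, luminal over basal, it was -5.88 (95% exact interval -8.16 to -4.32). The adjusted p was 0.000506 with edgeR and 8.9e-07 with DESeq2, and with limma it was 0.228 without a filter on low values and between 0.137 and 0.283 without each library in turn, where the fitted log2 difference was -6.39 to -5.12. In those fits 1 cell type had a single library, which is assumed to vary like the other cell type. It ranked 19 in likeness to Slco2a1, at a distance of 1.37.

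Of the other 5 members of the transport and inactivation list, limma, edgeR and DESeq2 called 0. Over all 6 genes of the list, Slco4a1 included, 3 had an unadjusted limma p under 0.05 (18.5% of all genes kept). Slco2b1, a carrier of the same family that passed the filter through its basal libraries alone, was at 31 and 13 in basal cells and at 0 in both luminal libraries (limma adjusted p = 0.0872). Slco3a1, a further carrier of the family, was at 551 and 513 in basal cells and at 484 and 374 in luminal cells (limma adjusted p = 0.636). Ptgr1 and Zadh2 both encode enzymes that reduce prostaglandin breakdown products. Zadh2 was at 633 and 682 in basal replicates 1 and 3 and at 213 and 187 in luminal replicates 3 and 2 (log2 difference -1.71, standard error 0.37, limma adjusted p = 0.0767). Ptgr1 lay the other way, at 63 and 32 in basal cells and at 271 and 125 in luminal cells (log2 difference 2.01, standard error 0.84, limma adjusted p = 0.284). Ptgr2, a related reductase, overlapped, at 388 and 169 in basal cells and at 349 and 280 in luminal cells.

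Of the 20 phospholipases and related enzymes that release arachidonic acid, 10 passed the filter and 0 were called by limma, with 3 at an unadjusted p under 0.05 (18.5% of all genes kept), of which Pla2g4f and Pla2g4c had passed through the luminal libraries alone. Pla2g4f (ENSMUSG00000046971, chromosome 2, 120299957 to 120314165), of the cytosolic phospholipase family, was at 31 and 6 in basal replicates 1 and 3 and at 600 and 374 in luminal replicates 3 and 2. Both luminal libraries were higher, with a log2 difference of 4.99 (standard error 1.01, limma adjusted p = 0.0705). It passed with edgeR (adjusted p = 0.00430), with DESeq2 (adjusted p = 6.0e-05) and with limma at a pseudocount of 10 (adjusted p = 0.0377). It was kept for its luminal values alone, which favours genes that are higher there, so these p-values are not given as support. Pla2g4a, the widely expressed enzyme of that family, was at 301 and 513 in basal cells and at 290 and 841 in luminal cells, so that the cell types overlapped (limma adjusted p = 0.792). Pla2g4b and Pla2g12a had log2 differences of 0.86 and 1.05 and limma adjusted p of 0.543 and 0.418.

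Of 10 terminal synthases and related enzymes 8 passed the filter. Limma, edgeR and DESeq2 called 0 of them, where they called 0.694%, 5.13% and 4.48% of all genes. An unadjusted limma p under 0.05 was found in 1 (18.5% of all genes kept). Ptges3, a cochaperone also described as a cytosolic synthase, was nearly flat, at 2023 and 1851 in basal cells and at 2052 and 2213 in luminal cells. Hpgds, for D-prostaglandins, was at 219 and 201 in basal cells and at 136 and 62 in luminal cells (limma adjusted p = 0.416). Cbr1, a carbonyl reductase that can convert E- to F-prostaglandins, was at 332 and 227 in basal cells and at 813 and 467 in luminal cells (limma adjusted p = 0.263). Ptgis, the prostacyclin synthase of vessels and stroma, was at 163 and 663 in basal replicates 1 and 3 and at 213 and 841 in luminal replicates 3 and 2. Its higher library in each cell type was again the library with the higher fibroblast sum, and the part of stromal RNA was not tested. Ptgds was at 0 in all 4 libraries.

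Among the receptors for other prostanoids, 6 of 7 genes passed the filter, 0 were called by limma and 1 had an unadjusted p under 0.05 (18.5% of all genes kept). This was Ptgdr (ENSMUSG00000071489, chromosome 14, 44851235 to 44859375), a receptor for D-prostaglandins, at 0 and 6 in basal replicates 1 and 3 and at 639 and 156 in luminal replicates 3 and 2. The basal libraries held 1 read in all and the luminal libraries 38. The ratio of recovered reads, luminal over basal, was 142 with a 95% exact interval of 24.1 to 5769, and the limma adjusted p was 0.0705 (edgeR 0.00539, DESeq2 0.00106). It too was kept for its luminal values alone, and these p-values are not given as support. Its value is uncertain, since 22.1% of its exon bases are shared with the pseudogene Gm16976 on the opposite strand, which was at 0, 6, 503 and 125 in the same libraries. Ptgfrn, a membrane protein that binds the F-prostaglandin receptor, was at 1841 and 2403 in basal cells and at 1723 and 1776 in luminal cells (limma adjusted p = 0.587). Ptgfr, that receptor itself, was at 56 and 19 in basal and at 39 and 31 in luminal cells. The thromboxane receptor Tbxa2r had 1 read in basal replicate 3 and none elsewhere. Ptgdr2 was at 31 and 32 in basal cells and at 77 and 93 in luminal cells (limma adjusted p = 0.438). Ptgir, at 0 and 19 in basal against 19 and 156 in luminal cells, and Pparg, at 13 and 26 against 19 and 125, overlapped. By the fold call 4 genes of the list were higher in luminal and 0 in basal cells (18.3% and 16.3% of all genes kept). Ptgdr, Ptgir and Pparg passed the filter through their luminal libraries alone, so this count is no support for a difference.

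**Figure D3:**
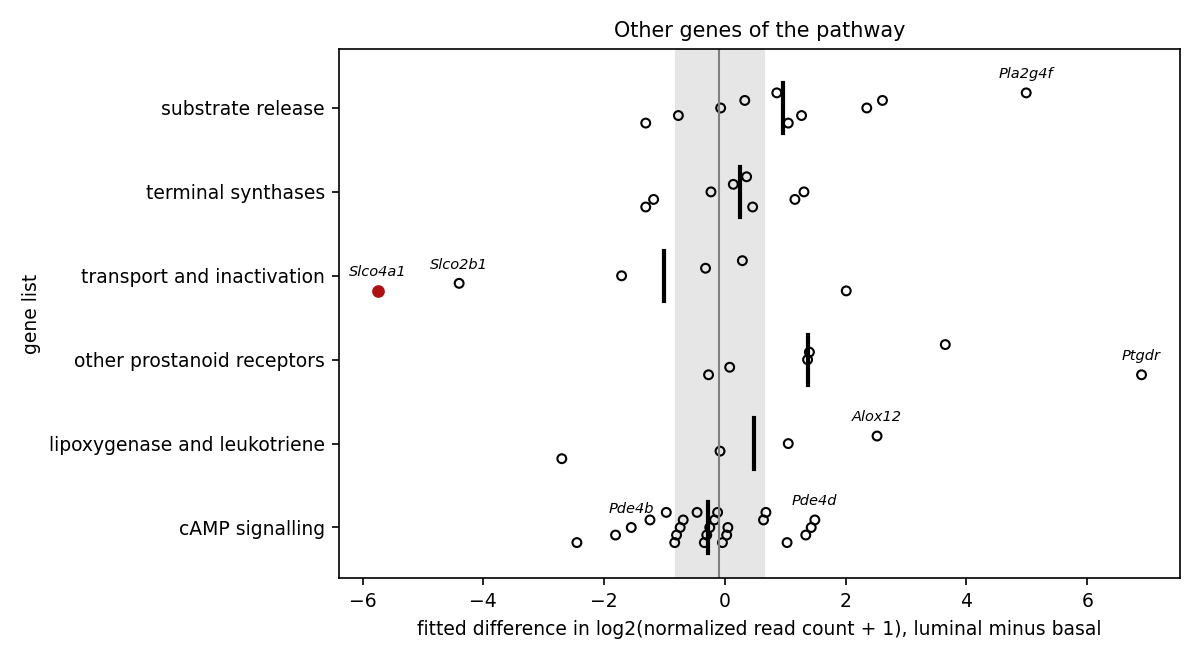
Fitted difference in log2(normalized read count + 1), luminal minus basal, for each gene that passed the filter in the 6 pathway lists, with short bars at list medians, the gray line at the median of all genes kept (-0.10) and the gray band from their lower to their upper quartile. Slco4a1, filled in red, is the gene with a limma adjusted p under 0.05, at -5.75, and Ptgdr and Pla2g4f lie furthest to the luminal side, at 6.90 and 4.99.

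Lipoxygenases compete for the same substrate. Of 14 genes of the lipoxygenase and leukotriene list 4 passed the filter, 0 were called by limma and 1 had an unadjusted p under 0.05 (18.5% of all genes kept). Alox12 was at 125 and 65 in basal replicates 1 and 3 and at 290 and 935 in luminal replicates 3 and 2, higher in both luminal libraries (log2 difference 2.52, standard error 0.75, limma adjusted p = 0.162, edgeR 0.0344, DESeq2 0.0122). The log2 difference was 1.67 without luminal replicate 2 and 3.36 without luminal replicate 3. Lta4h, which completes leukotriene B synthesis, was at 514 and 474 in basal cells and at 368 and 592 in luminal cells, overlapping. Aloxe3, an epidermal-type lipoxygenase, was at 94 and 403 in basal cells and at 349 and 467 in luminal cells, also overlapping. Alox5ap, which 5-lipoxygenase needs in cells, was at 0 in all libraries, and Alox5 had 0 to 50.

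The E-receptors act largely through cAMP, and 24 of 26 genes of its production, sensing and breakdown passed the filter. None was called by limma, 8 had an unadjusted p under 0.05 (18.5% of all genes kept), and edgeR and DESeq2 each called 1 gene in each direction, both of them phosphodiesterases of the cAMP-specific family. Pde4b was at 8999 and 7301 in basal replicates 1 and 3 and at 2207 and 3459 in luminal replicates 3 and 2 (log2 difference -1.55, standard error 0.30, limma adjusted p = 0.0705, edgeR 0.0134, DESeq2 0.00959). Pde4d was at 858 and 1325 in basal cells and at 2653 and 3366 in luminal cells (log2 difference 1.49, standard error 0.31, limma adjusted p = 0.0705, edgeR 0.0265, DESeq2 0.0278), and was named after its values were seen. In both genes the libraries of the cell types did not overlap. Over the 24 genes kept, both basal libraries were above both luminal libraries in 11 (27.3% of all genes kept). The reverse order held in 3 (23.6% of all genes kept). Of the adenylyl cyclases, Adcy1 was at 1165 and 1156 in basal cells and at 581 and 187 in luminal cells (limma adjusted p = 0.185), and Adcy9 was at 232 and 188 in basal cells and at 445 and 717 in luminal cells (limma adjusted p = 0.174). Gnas, the stimulatory G protein, was at 9194 and 11231 in basal cells and at 8558 and 8476 in luminal cells.

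**Figure D4:**
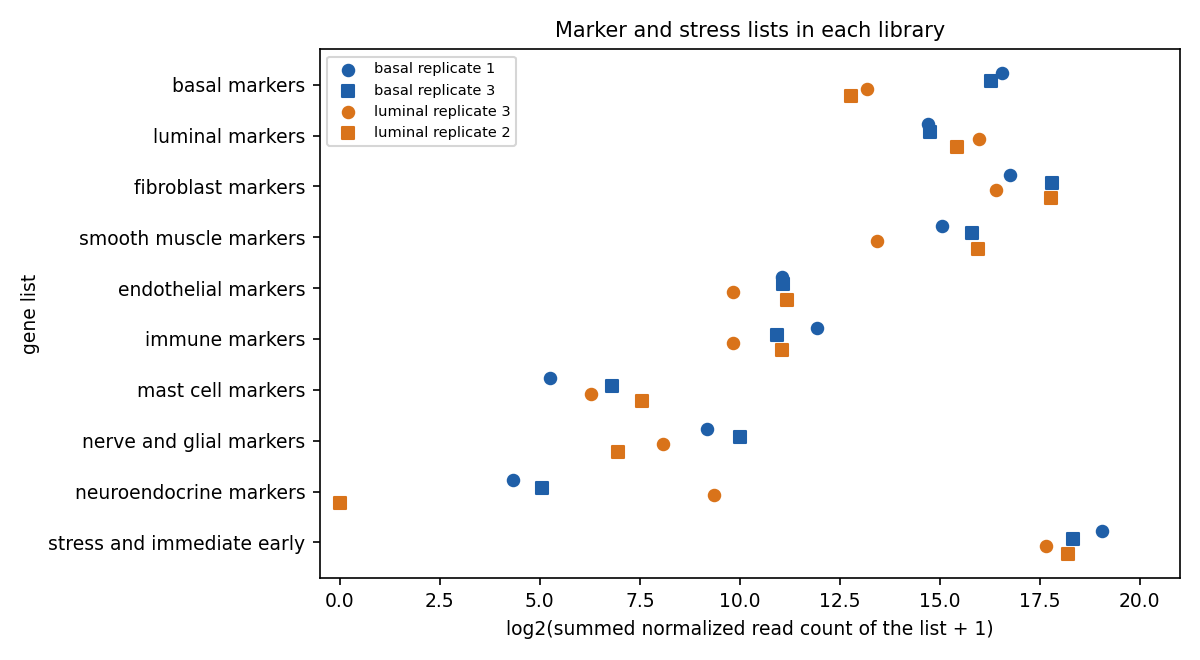
Summed normalized read count of each marker list and of the stress and immediate early list in each library, as log2 of the sum plus 1. Basal markers separate the blue basal libraries (96627 and 79047) from the orange luminal libraries (9216 and 7010), while fibroblast sums are highest in basal replicate 3 and luminal replicate 2 (228649 and 225324).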

How the data were processed

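Total RNA of FACS-isolated cells was sequenced in 4 libraries. The authors aligned reads with STAR to GRCm38 (mm10), counted them per gene with HTSeq on Ensembl 87 and deposited a normalized signal per gene, counts scaled to a common total and rounded; strand use and versions are not given in the sources used here. Columns without a sample numbered 0. Recovered reads are values divided by the value of 1 read and rounded. Of values up to 60 reads, 97.9 to 99.1% lay within 0.75 of a whole multiple. Names and lengths came from GENCODE M21 (49326 of 49671 IDs matched). Genes with at least 10 in every library of a group and an average of at least 20 were kept (18737). Luminal and basal libraries were compared with limma 3.58.1 on log2(value + 1), R 4.3.3, with Benjamini-Hochberg adjustment and a threshold of 0.05; edgeR 4.0.16 and DESeq2 1.42.0 on recovered reads, other filters, pseudocounts, scalings and leaving out each library were alternatives. The fits were tested on simulated data. There limma found most but not all large changes and missed moderate ones that edgeR and DESeq2 found in part. The simulated counts followed the negative binomial model that edgeR and DESeq2 use, with a single dispersion taken from these libraries. Changes were put only into genes with ample reads. The simulation therefore cannot rank the tools on the real data. An exact permutation test of 2 against 2 libraries cannot go below p = 0.333. Members and lists were chosen with earlier results of these data known. Named besides the members were, per pathway list, genes with a limma adjusted p under 0.05 and the 3 with the largest ratio of averages at an average of at least 100, any terminal synthase or prostanoid receptor, and the 5 genes most like Slco2a1. Slco2b1, Slco3a1, Ptgr2, Pla2g4a, Pla2g4c, Alox5, Alox5ap, Gnas and Pde4d were named after their values were seen, and Gm16976, Gm15937 and Gm17173 for shared exons. Some overlapping annotation is not reported here. Replicates may share animals, so p-values measure the spread between these libraries.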

Additional observations from a re-analysis of the deposited data

How the results depend on the processing

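No paired analysis was possible because the basal and luminal libraries share a single replicate number. With 2 libraries per cell type and shallow luminal libraries, limma calls were few and unstable. Over all genes 130 were called (48 luminal, 82 basal), against 0 without a filter, 678 with a strict filter, 531 with a pseudocount of 10, 948 with edgeR, 828 with DESeq2, 125 (63 and 62) after rescaling to nuclear protein-coding genes, 107 (41 and 66) with median-ratio scaling, and 312 to 991 without each library in turn, where the direction swung: 6 luminal and 587 basal without basal replicate 1, 80 and 751 without basal replicate 3, 830 and 161 without luminal replicate 3, and 298 and 14 without luminal replicate 2. Fold calls numbered 6482, against 14341 without a filter, 3644 with a strict filter, 6698 (4551 and 2147) after nuclear rescaling and 7145 to 9175 without each library. Nuclear rescaling moved the median log2 difference of all genes from -0.10 to 0.21. By list, calls went from 0 to 1 for substrate release (limma at pseudocount 10, edgeR, DESeq2, and limma without luminal replicate 3) and other receptors (limma at pseudocount 10, edgeR, DESeq2). For lipoxygenases limma gave 0 under every setting, and edgeR and DESeq2 gave 1. For cAMP genes they went from 0 to 2 (strict filter, edgeR, DESeq2) or 1 (pseudocount 10), and were 0 to 1 without each library. For transport they went from 1 to 0 without a filter and were 0 to 1 without each library, where the call left without basal replicate 3 is not Slco4a1. Nuclear rescaling moved each member toward luminal cells (Abcc4 to 2.21, Ptger1 from 0.99 to 1.31, Ptgs2 from -1.12 to -0.86, Ptges from -0.47 to -0.12, Hpgd from -0.35 to -0.05), and a pseudocount of 10 brought Ptger3 from -2.31 to -1.77 and Ptger2 from 1.66 to 0.58. Fits without a library leave 1 cell type with a single library, assumed to vary like the other. Without each library the log2 ratio ran from -5.65 to -4.97 for Slco2a1, -3.59 to -2.23 for Ptgs1, -2.37 to -0.47 for Ptgs2, -1.14 to 0.02 for Ptges, -0.88 to 0.49 for Hpgd, 1.70 to 2.14 for Abcc4, 0.53 to 1.68 for Ptger1, 0.66 to 2.66 for Ptger2, -2.83 to -1.31 for Ptger3 and -1.15 to 0.78 for Ptger4; Ptger2 and Ptger3 gave no value where a cell type was left at 0. The fitted log2 difference ran from 3.89 to 6.08 for Pla2g4f, 5.50 to 8.31 for Ptgdr, 1.67 to 3.36 for Alox12, -1.88 to -1.23 for Pde4b and -6.39 to -5.12 for Slco4a1. Direction turned for Ptgis (-0.65 without basal replicate 1, -0.62 without luminal replicate 2, range -0.65 to 1.37), Ptgfrn (0.04 after nuclear rescaling) and Lta4h (0.23 after nuclear rescaling, range -0.42 to 0.26 without each library, highest without luminal replicate 3). The cause of these changes was not tested.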
